A study of Mus musculus with 27 samples.

Results

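Intestinal RNA of mice taken 24 h after 6 Gy of gamma rays plus CBLB502 was compared with that of untreated control mice. Both groups were chosen by their sample labels, and together they hold 6 of the 27 libraries of the series, 3 in each group. All mice were labelled as male wildtype C57BL/6 aged 6 to 8 weeks. Irradiation was from a 60Co source at 72 R/min. CBLB502, a protein derived from bacterial flagellin, was given into the peritoneum at 0.2 mg/kg. The controls are labelled as normal mice with no treatment, while the design text of the series speaks of a PBS group. The labels give CBLB502 0.5 h before irradiation for 15 Gy, and do not say when it was given with 6 Gy. The labels hold 9 groups, while the design text counts 7 groups of 10 mice. Whether each library is a separate mouse is not stated, so each p-value rests on spread among libraries that may be technical. Used for direct comparison were 3 other groups of 3 libraries, all taken at 24 h, given 6 Gy alone, CBLB502 alone, or 15 Gy plus CBLB502.

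CBLB502 activates Toll-like receptor 5 (TLR5), the receptor for flagellin, which signals through the transcription factor NF-kB to inflammatory and survival genes. In the small intestine, ionizing radiation stabilizes p53 in crypt cells, where it switches on genes of cell cycle arrest and death. Stem cells at the crypt base divide to supply the villus with enterocytes, which digest and absorb food, while Paneth cells beside the stem cells secrete antimicrobial peptides.

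Total counts were 75.5 to 86.9 M in the control libraries and 62.1 to 68.5 M after 6 Gy plus CBLB502. Levels below are counts per 1 M (CPM) after TMM scaling, whose factors were 0.861 to 0.864 in control and 1.24 to 1.43 after 6 Gy plus CBLB502. Where a group is given by 1 value it is the mean ± SD, and a change is edgeR's log2 fold change ± SE, with n = 3 libraries per group. Of 11118 genes that entered the test, those with an adjusted p under 0.05 are termed called, and the words rose and fell are kept for them. The share of counts on the mitochondrial genome was 14.0 ± 3.32% in control and 11.1 ± 1.76% after 6 Gy plus CBLB502. The labelled tissue was checked by the epithelial adhesion gene Epcam and by lactase (Lct), the milk sugar enzyme of the brush border. Epcam stood at 4435, 4061 and 2655 CPM in control and 1023, 1578 and 1408 CPM after 6 Gy plus CBLB502, and fell (-1.48 ± 0.24, adjusted p = 0.000148). Lct stood at 2799, 3130.4 and 2364 CPM and 2010.2, 2869 and 2661 CPM. The groups overlapped for Lct, and its difference was not called (-0.14 ± 0.21, adjusted p = 0.635).

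RNA of exocrine pancreas set 6 libraries apart from the other 21, those of 6 Gy plus CBLB502 and of 6 Gy alone at 24 h. Pancreatic genes with under 20 counts in each control library (33 genes) took 3.05e-05, 4.03e-05 and 3.70e-05% of counts in control. Their share was 0.296, 0.0388 and 0.447% after 6 Gy plus CBLB502, and 0.0108, 1.26 and 0.0159% after 6 Gy alone. No library of the other 7 groups passed 0.00205%. Genes of stroma and muscle with a mean of under 100 counts per control library (42 genes) took 0.000649, 0.000477 and 0.00149% of counts in control. Their share was 0.0114, 0.0186 and 0.0141% after 6 Gy plus CBLB502. After 6 Gy alone they took 0.0276, 0.00881 and 0.0128%, and the highest of the other libraries, replicate 2 of 15 Gy at 24 h, came near the lowest of these with 0.00757%. Replicate 2 of 6 Gy plus CBLB502 was lowest of its group in pancreatic and highest in stromal RNA. Both gene sets were chosen for low counts in control, so their low share in control follows in part from that choice.

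**Figure D1:**
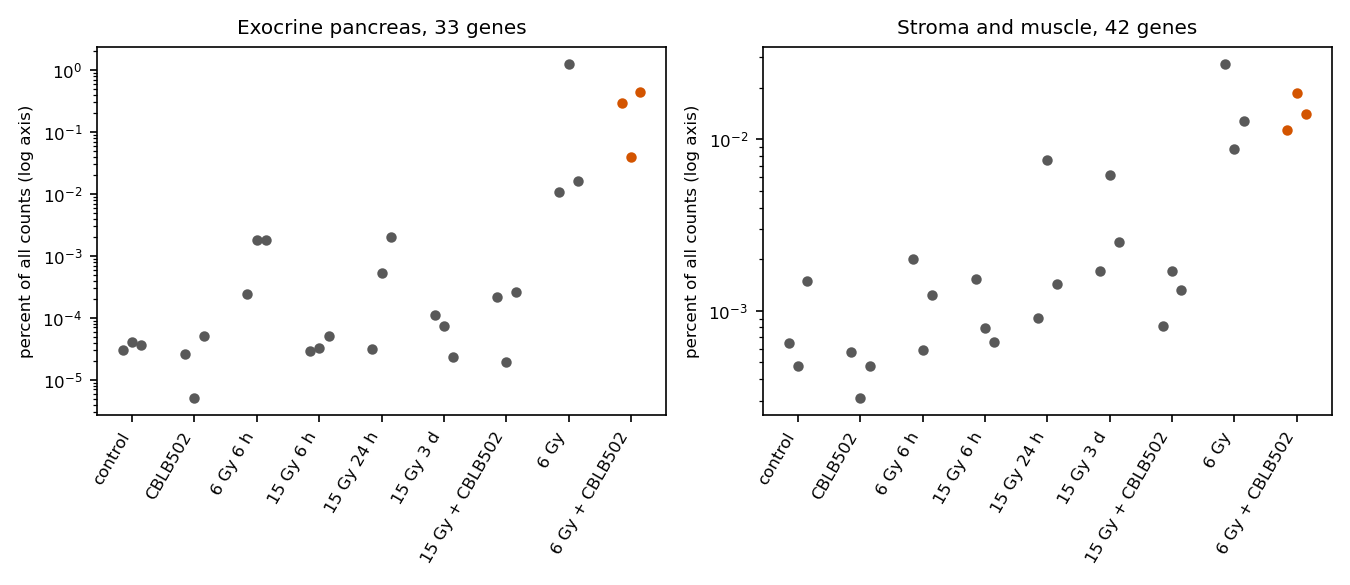
Share of counts, in percent on a log axis, taken by 33 exocrine pancreas genes (left) and 42 stroma and muscle genes (right), with 1 point per library in the 9 groups; orange marks 6 Gy plus CBLB502. The orange points lie at 0.0388 to 0.447% for pancreas, against at most 4.03e-05% in control.

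Among the 44 listed genes of exocrine pancreas 35 were tested, 29 rose and 2 fell, beside 37.3% of all tested genes called (19.8% higher and 17.5% lower). Of the 35, 24 passed the filter on low values only because of the 6 libraries of 6 Gy at 24 h, so this count describes those libraries. The median change was 10.66, or 8.87 with the 18 genes at 0 counts in control set at their lower bound. The amylase gene Amy2a3 had 0 counts in every control library and 305, 63.2 and 473 CPM after 6 Gy plus CBLB502, at least 19325-fold higher (adjusted p = 0.000668). Its neighbour Amy2b was likewise at 0 counts in control and at 109, 10.4 and 187 CPM, at least 7036-fold higher (adjusted p = 0.00649). The amylase genes are near-identical copies, so how counts divide among them is uncertain. The elastase gene Cela3b was at 56.7, 9.76 and 79 CPM (at least 3340.2-fold higher, adjusted p = 0.000645), carboxypeptidase B (Cpb1) at 103, 15.2 and 186 CPM (at least 6974-fold higher, adjusted p = 0.00127), and the trypsin gene Try4 at 133, 20.3 and 186 CPM (at least 7785-fold higher, adjusted p = 0.0018), all with 0 counts in control. In each of these genes replicate 2 was lowest. The pancreatic regulator Ptf1a, Cela3a and Prss1 stayed at 0 counts in both groups.

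Promoter sequence of these enzymes is shown because they were at 0 counts in control and moved together. Each window of 60 bases is RefSeq sequence of GRCm38.p6 in the direction of the gene, upstream of its start site, with the E-box CACCTG, or CAGGTG on the other strand, in capitals. This E-box is of the kind read by acinar helix-loop-helix factors. Within 250 bases before to 50 after the start site, 19 of 34 matched pancreatic genes (55.9%) held it on either strand, beside 22.6% of all 27025 genes of the table. It was in 12 of 26 called and 2 of 2 uncalled matched members. The windows shown are of genes that hold it. A match is a description of the letters only.
Cela3b chr4:137430534-137430593, minus strand: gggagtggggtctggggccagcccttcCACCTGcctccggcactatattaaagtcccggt
Cpb1 chr3:20275795-20275854, minus strand: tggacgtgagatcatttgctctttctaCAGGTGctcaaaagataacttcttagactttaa
Try4 chr6:41302149-41302208, plus strand: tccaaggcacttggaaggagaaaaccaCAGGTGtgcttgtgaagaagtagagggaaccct

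Of 32 listed fibroblast and matrix genes 9 were tested (6 of them only because of the 6 libraries), 5 rose (3 without control 2) and 1 fell. Collagen I (Col1a1) stood at 0.262, 0.0803 and 0.492 CPM in control and 23.5, 16.6 and 9.58 CPM after 6 Gy plus CBLB502, without overlap (5.90 ± 1.26, adjusted p = 0.0013). Collagen III (Col3a1) also rose (4.58 ± 0.93, adjusted p = 0.000886). Of 23 smooth muscle genes 13 were tested (6 of them only because of the 6 libraries), 4 rose (1 without treated replicate 2, control 1 or control 2) and 1 fell. With the filter on low values set on the other 21 libraries 0 fibroblast and 1 smooth muscle gene were called higher. Actin Acta2 rose from 0.0617, 0 and 0.343 CPM to 3.02, 8.82 and 2.85 CPM (5.18 ± 1.86, adjusted p = 0.0336) and myosin Myh11 from 0, 0.0535 and 0.119 CPM to 1.33, 7.15 and 2.10 CPM (5.89 ± 2.20, adjusted p = 0.0402). Both were highest in replicate 2, and both calls ended without it, or without control 1 or control 2 (Myh11 also without control 3 or replicate 3), with adjusted p up to 0.108 for Acta2 and 0.12 for Myh11. More cells of a type and more RNA per cell cannot be told apart in these bulk libraries.

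Across all genes, 4143 of 11118 (37.3%) were called, 2198 higher (19.8%) and 1945 lower (17.5%), and 5615 (50.5%) had no overlap between the groups. The shares higher and lower are the background for every list count against control with TMM. Changes over 2-fold were called for 1171 genes higher and 629 lower, and the median over all genes was 0.07. Of the tested genes 1018 passed the filter on low values only because of the 6 libraries of 6 Gy at 24 h. Of these 471 were called higher and 2 lower. With the filter set on the other 21 libraries 10100 genes were tested, and 1885 were higher and 1744 lower. The balance of higher and lower calls depended on the scaling. With libraries scaled to epithelial genes, 8353 were higher (75.1%) and 181 lower (1.63%), and the median moved to 1.09, the background for every list count given with epithelial scaling. By limma on log2(FPKM + 1), 6117 were higher and 448 lower (93.2% higher, against 53.1% in the fit with TMM), and the median was 0.47. With the pancreas score of each library as a covariate 315 were higher (2.83%) and 352 lower (3.17%), and with the fibroblast score 710 higher (6.39%) and 867 lower (7.8%). A score is the mean over a list of log2 CPM minus the gene's mean over all libraries. These scores separate the 2 groups, with pancreas scores of -1.84, -1.92 and -1.82 in control against 5.91, 3.48 and 6.51, so a change that follows the treatment and one that follows the admixed RNA cannot be told apart by such a fit.

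The 12 largest falls among genes whose groups did not overlap were headed by Fam151a (-5.65) and Nos2. Inducible nitric oxide synthase (Nos2) stood at 59.1, 65.8 and 52.2 CPM in control and 3.07, 0.184 and 0.520 CPM after 6 Gy plus CBLB502 (-5.54 ± 1.50, adjusted p = 0.00714). The hydrogen peroxide-forming oxidase Duox2 fell from 283, 236 and 91.7 CPM to 12, 2.41 and 2.98 CPM (-5.13 ± 1.11, adjusted p = 0.00146), and its maturation factor Duoxa2 from 67.6, 62.4 and 19 CPM to 2.65, 0.637 and 0.619 CPM (-5.24 ± 1.20, adjusted p = 0.00213). The 3 genes share a low level in all 3 treated libraries. The beta-carotene cleaving enzyme Bco1 (ENSMUSG00000031845) lies on chromosome 8 from 117095854 to 117133720 on GRCm38. It stood at 44.2, 41.4 and 41.5 CPM in control and 0.611, 2.23 and 1.16 CPM after treatment (-4.99 ± 0.67, adjusted p = 2.84e-05). The ubiquitin-like modifier Ubd (ENSMUSG00000035186) lies on chromosome 17 from 37193892 to 37196095, and fell from 154, 168 and 111 CPM to 8.41, 11.8 and 3.19 CPM (-4.21 ± 0.56, adjusted p = 2.74e-05). Bco1 and Ubd were also called in each of the 20 alternatives run. Also among the 12 largest falls were Slc5a8, a short-chain fatty acid and lactate carrier (-4.69), the sialic acid lyase Npl (-4.01), the calcium-binding Ocm (-3.80), Cyp3a44 (-3.43) and the potassium channel Kcnj13 (-5.23). The calls of Fam151a and Kcnj13 ended without replicate 1 or replicate 3 of 6 Gy plus CBLB502, with adjusted p up to 0.057 and 0.0684.

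By the same rule, all of the 12 largest rises were pancreatic enzymes. Outside the marker lists of other tissues, the rise of Ephx1, the microsomal epoxide hydrolase, was called in each alternative too. Ephx1 (ENSMUSG00000038776) lies on chromosome 1 from 180976210 to 181020904, and rose from 2.21, 3.33 and 7.51 CPM to 71.6, 35.9 and 37.9 CPM (3.48 ± 0.56, adjusted p = 0.000129). Pdx1, a homeobox factor of duodenum and pancreas, stood at 0.463, 0.455 and 1.42 CPM in control and 27.5, 15.6 and 14.3 CPM after treatment (4.62 ± 1.34, adjusted p = 0.0106). Claudin 2 (Cldn2), a pore-forming tight junction protein of crypts, rose from 2.39, 0.964 and 8.12 CPM to 69.9, 25.8 and 37.9 CPM (3.54 ± 1.17, adjusted p = 0.0218), a call that ended without control 1, control 2 or replicate 1 of the treated group (adjusted p up to 0.0867). The conjugating enzyme entry Ugt1a9 rose from 0.216, 0.214 and 0.134 CPM to 82.6, 122 and 134 CPM (9.21 ± 1.91, adjusted p = 0.00103), but it shares exons with the other Ugt1a genes and is uncertain.

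**Figure D2:**
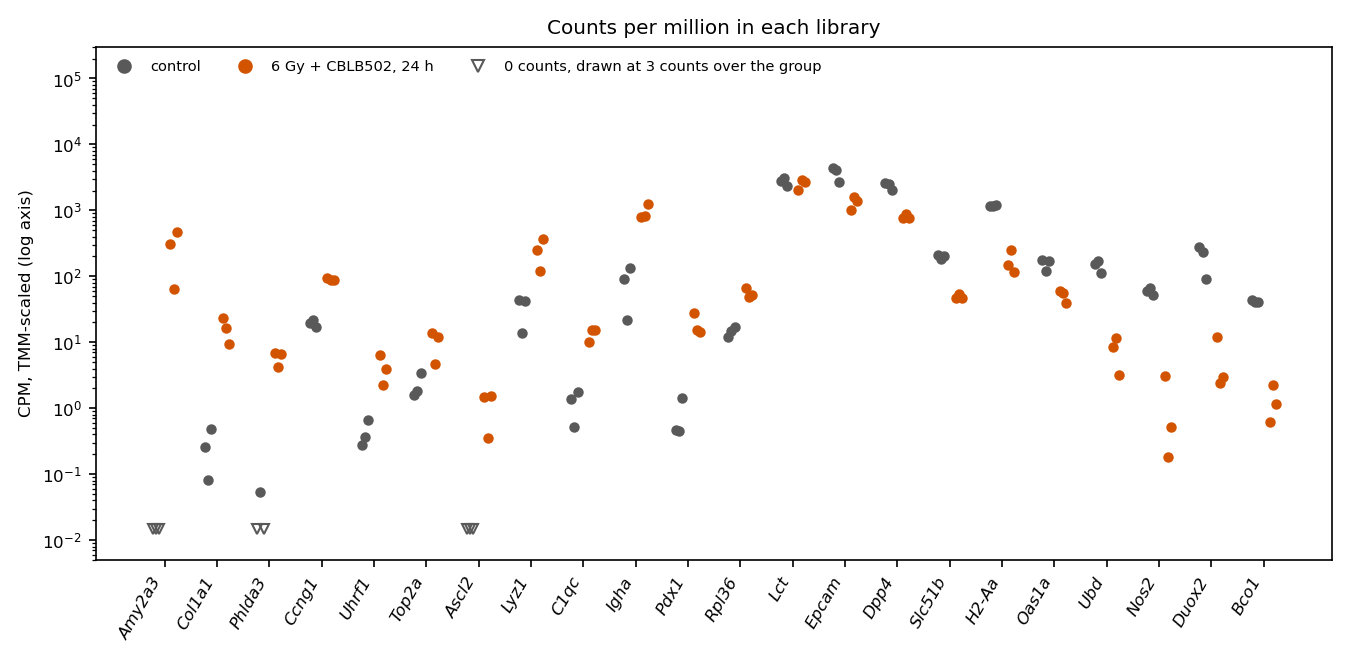
TMM-scaled CPM on a log axis of 22 genes, with 1 point per library in control (grey) and 6 Gy plus CBLB502 (orange); open triangles are 0 counts, drawn at the level of 3 counts over the group. Apart from Lct, the orange and grey points of each gene do not overlap.

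Called genes of the p53 response were mostly higher. Of 34 tested p53 targets 17 rose and 4 fell, with a median of 0.48, beside 19.8% and 17.5% of all genes. Cyclin G1 (Ccng1), a feedback regulator of p53, stood at 19.6, 21.8 and 17.1 CPM in control and 95.4, 88.2 and 87.7 CPM after 6 Gy plus CBLB502. The groups did not overlap (2.21 ± 0.16, adjusted p = 3.3e-08). Phlda3, an inhibitor of Akt signalling, stood at 0, 0.0535 and 0 CPM in control, a total of 4 counts, and at 6.93, 4.29 and 6.56 CPM after treatment (8.16 ± 0.78, adjusted p = 2.92e-06). The apoptosis-enhancing nuclease Aen (ENSMUSG00000030609) lies on chromosome 7 from 78895854 to 78911209, and rose from 1.14, 0.991 and 1.61 CPM to 13.2, 7.38 and 9.78 CPM (3.02 ± 0.34, adjusted p = 7.19e-06). The RNA-binding p53 target Zmat3 (ENSMUSG00000027663) lies on chromosome 3 from 32334792 to 32366014, and rose from 5.44, 6.51 and 5.32 CPM to 16.8, 13.2 and 15.1 CPM (1.38 ± 0.16, adjusted p = 8.17e-06). Ccng1, Phlda3 and Aen kept their calls in each of the 20 alternatives run, and Zmat3 in each that tested it, since it does not pass a filter on low values set on the other 21 libraries.

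The cell cycle inhibitor Cdkn1a, the best known p53 target, moved the other way. It stood at 407, 406 and 425 CPM in control and 233, 213 and 224 CPM after treatment, and fell (-0.89 ± 0.18, adjusted p = 0.000974), while with epithelial scaling its difference was above 0 and not called (0.13). Mdm2, the ligase that degrades p53, stood at 42.8, 48.1 and 62.5 CPM and 42, 47 and 41.5 CPM and was not called (-0.23 ± 0.17, adjusted p = 0.304), with the sign reversed by epithelial scaling and by limma. The death gene Bax rose (1.11 ± 0.18, adjusted p = 0.000152). Among the tested genes of an apoptosis list 4 rose and 11 fell (median -0.38). With epithelial scaling 15 of them were higher and 0 lower (median 0.66). With the pancreas score as a covariate 7 p53 targets were higher and 1 lower, beside 2.83% and 3.17% of all genes.

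Of 12 tested DNA repair genes 7 rose and 0 fell (median 0.70), beside 19.8% and 17.5% of all genes. Only 4 were called with the filter set on the other 21 libraries, which 3 of the 12 did not pass. The Ku subunits Xrcc6 (1.68 ± 0.24, adjusted p = 6.37e-05) and Xrcc5 (1.45 ± 0.37, adjusted p = 0.00447), which bind broken DNA ends, both rose. The break sensor Parp1 stood at 1.25, 1.27 and 1.37 CPM in control and 7.61, 4.05 and 5.23 CPM after treatment (2.12 ± 0.35, adjusted p = 0.000161), without overlap.

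Called genes of proliferation were all higher, beside 19.8% of all genes called higher and 17.5% lower. Of 21 tested genes of DNA replication 11 rose and 0 fell (median 0.94), and of 11 mitosis genes 6 rose and 0 fell (median 1.79). Of these, 5 replication and 6 mitosis genes passed the filter on low values only because of the 6 libraries of 6 Gy at 24 h, where they are high. With the filter set on the other 21 libraries 7 replication and 3 mitosis genes were called higher. Uhrf1 (ENSMUSG00000001228), a factor in the copying of DNA methylation at the fork, lies on chromosome 17 from 56303321 to 56323486. Its level was 0.278, 0.361 and 0.656 CPM in control and 6.51, 2.24 and 3.98 CPM after 6 Gy plus CBLB502 (3.29 ± 0.58, adjusted p = 0.000275). The helicase subunits Mcm5 (2.81 ± 0.52, adjusted p = 0.000465) and Mcm3 (2.44 ± 0.48, adjusted p = 0.000665) rose with the polymerase subunit Pold1 (2.08 ± 0.36, adjusted p = 0.000254). Topoisomerase Top2a stood at 1.60, 1.82 and 3.38 CPM in control and 14.1, 4.76 and 12 CPM after treatment (2.18 ± 0.54, adjusted p = 0.00389), with replicate 2 the lowest treated library. The mitotic kinase Plk1 (1.79 ± 0.34, adjusted p = 0.000546) and the cyclin-degrading enzyme subunit Ube2c (3.04 ± 0.59, adjusted p = 0.000668) rose. The proliferation marker Mki67 overlapped between the groups, with 5.58, 3.08 and 9.06 CPM and 20.4, 7.69 and 14.5 CPM, and was not called (1.27 ± 0.59, adjusted p = 0.0984). With the fibroblast score as a covariate 0 mitosis genes were called (median 0.17).

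Of 15 tested crypt stem cell and Wnt genes 7 rose and 0 fell (median 1.27), beside 19.8% and 17.5% of all genes. With the filter set on the other 21 libraries, which 3 of the 15 did not pass, 5 rose. The Wnt-driven stem cell factor Ascl2 had 0 counts in control and 1.50, 0.355 and 1.51 CPM after treatment, at least 77.3-fold higher (adjusted p = 0.00446). Myc stood at 0.416, 0.509 and 0.790 CPM in control and 5.11, 3.18 and 5.02 CPM after treatment (2.95 ± 0.69, adjusted p = 0.00255). The chloride cotransporter Slc12a2, enriched in crypts, rose (2.97 ± 0.66, adjusted p = 0.00174), as did the Myc target Cdca7 (2.24 ± 0.45, adjusted p = 0.000844). The stem cell secretory marker Olfm4 did not overlap, with 1.77, 0.455 and 6.62 CPM and 25.1, 10.4 and 22.9 CPM, but missed the threshold (2.72 ± 1.26, adjusted p = 0.096). The stem cell receptor Lgr5 was below the filter, at 0.231, 0.107 and 0.343 CPM in control and 0.538, 1.87 and 1.19 CPM after treatment. With the pancreas and fibroblast scores as covariates 1 and 2 of the 15 were called higher.

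**Figure D3:**
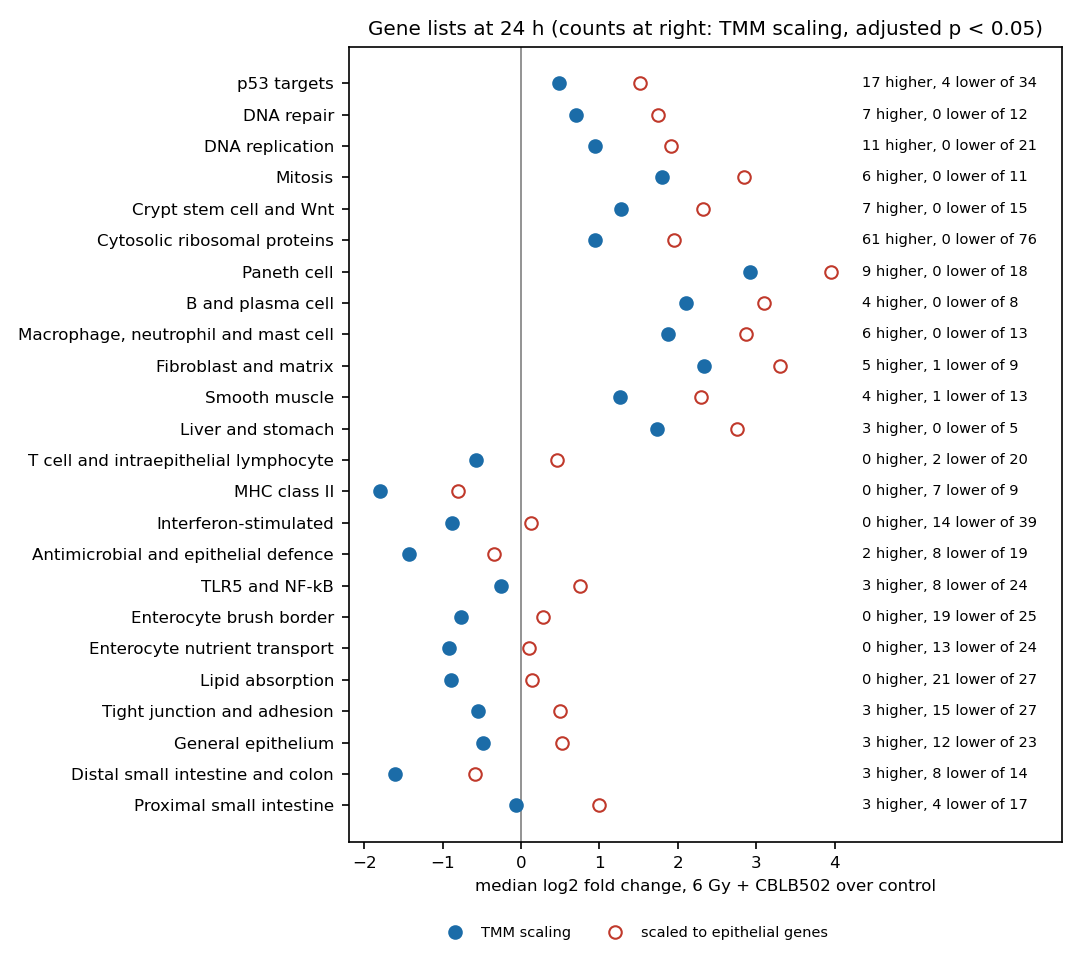
Median log2 fold change of 24 gene lists in 6 Gy plus CBLB502 over control, with TMM scaling (filled) and with libraries scaled to epithelial genes (open); counts at the right give tested members called with TMM. The median of interferon-stimulated genes is -0.88 with TMM and 0.13 with epithelial scaling, and that of MHC class II is -1.80 and -0.81. Over all genes the median is 0.07 and 1.09, so both lists lie below the median gene with either scaling.

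Among Paneth, plasma and myeloid cell markers every called gene was higher in the treated libraries. Of 18 tested Paneth cell genes 9 rose and 0 fell (median 2.92), beside 19.8% and 17.5% of all genes. Lysozyme (Lyz1) stood at 44.1, 14 and 41.7 CPM in control and 254, 122 and 371 CPM after treatment (2.90 ± 0.84, adjusted p = 0.0103). The defensin Defa30 rose from 7.29, 2.30 and 7.78 CPM to 86.2, 37.5 and 139.7 CPM (3.92 ± 1.08, adjusted p = 0.008), but defensin genes are near-identical copies and their counts uncertain. Control 2 and treated replicate 2 were lowest of their groups for both. Without control 2 only 2 Paneth genes were called and Lyz1 was not (adjusted p = 0.0526), and the count was 4 without control 1 and 5 without treated replicate 3.

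Of 8 tested B and plasma cell genes 4 rose and 0 fell (median 2.10), or 1 without control 2 and 2 without control 1 or treated replicate 3. Over all genes 19.8% rose and 17.5% fell, the background for each list in this paragraph with TMM. The IgA heavy chain Igha stood at 89.8, 21.8 and 135 CPM in control and 802, 819.8 and 1258 CPM after treatment (3.55 ± 1.10, adjusted p = 0.0159), and was not called without control 2 (adjusted p = 0.0684). Of 13 tested macrophage, neutrophil and mast cell genes 6 rose and 0 fell (median 1.88), or 2 without control 2. The complement gene C1qc of tissue macrophages rose from 1.40, 0.522 and 1.79 CPM to 10.2, 15.2 and 15.6 CPM (3.46 ± 0.88, adjusted p = 0.0044), and the lysosomal Cd68 from 0.617, 0.602 and 0.701 CPM to 2.78, 2.53 and 3.18 CPM (2.14 ± 0.45, adjusted p = 0.00114). For Paneth, plasma and macrophage genes, with either tissue score as a covariate 0 were called. What the stromal and pancreatic RNA of the same libraries contributes to these counts was not tested.

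T cell and intraepithelial lymphocyte genes had 0 of 20 tested higher and 2 lower (median -0.57, and 0.46 with epithelial scaling). Both shares were below the 19.8% and 17.5% of all genes, whose median was 0.07, and 1.09 with epithelial scaling. The count of lower T cell genes was 4 without control 3, and 1 without control 1, control 2 or treated replicate 1 or 3. The cytotoxic granzyme Gzmb fell from 125, 163 and 66.6 CPM to 35.4, 47.8 and 33 CPM (-1.61 ± 0.47, adjusted p = 0.0105), but not without control 2 (adjusted p = 0.0559). The T cell receptor component Cd3d overlapped between the groups (-0.97 ± 0.44, adjusted p = 0.0869).

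MHC class II genes, which present antigen to helper T cells, were lower. Of 9 tested 7 fell and 0 rose (median -1.80), and the median stayed below 0 with epithelial scaling (-0.81, with 2 called) and by limma (-1.21). H2-Aa (ENSMUSG00000036594) lies on chromosome 17 from 34282744 to 34287823. It stood at 1145, 1171 and 1215 CPM in control and 149, 249 and 118 CPM after treatment (-2.77 ± 0.65, adjusted p = 0.00264). The invariant chain Cd74 fell from 2041, 1928 and 1644 CPM to 377, 576 and 261 CPM (-2.21 ± 0.54, adjusted p = 0.00338). Every treated library was far below every control library for both. H2-Ab1 (-1.96 ± 0.50, adjusted p = 0.00482) and the antigen-processing protease Ctss (-0.85 ± 0.14, adjusted p = 0.00021, and above 0 with epithelial scaling) also fell. With the pancreas and fibroblast covariates 5 and 7 of the 9 were called lower, beside 3.17% and 7.8% of all genes.

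Of 39 tested interferon-stimulated genes 14 fell and 0 rose (median -0.88), while with epithelial scaling 9 were higher and 1 lower (median 0.13) and by limma 3 were higher and 5 lower. Of all genes 17.5% fell with TMM, and with epithelial scaling 75.1% were higher, with a median of 1.09. The nucleic acid sensor Zbp1 stood at 123, 104 and 134 CPM in control and 33.8, 37.8 and 23 CPM after treatment (-1.93 ± 0.34, adjusted p = 0.000266). The RNA-sensing synthetase Oas1a fell from 179, 122 and 169 CPM to 59.8, 55.1 and 39.8 CPM (-1.61 ± 0.35, adjusted p = 0.00147), and its copy Oas1g by a like amount (-1.50 ± 0.32, adjusted p = 0.00144). Neither gene overlapped between the groups. The count of 14 was 9 without treated replicate 3 and 7 without control 3.

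The promoters of this family carry a shared element, shown here because the called members moved together. The interferon-stimulated response element GAAANNGAAA, searched on both strands from 250 bases before to 50 after the start site, was present in 17 of 30 matched genes (56.7%) beside 3.99% of all 27025 genes. It was in 7 of 10 called and 9 of 19 uncalled matched members. The search for this element was added after the values were seen. The windows below are RefSeq sequence of GRCm38.p6 in the direction of the gene, with each match or its reverse complement in capitals. In Oas1a and Isg15 the matches overlap into a longer run. All 4 genes fell, with Isg15 at -1.60 (adjusted p = 0.0192), Ifit1 at -1.80 (adjusted p = 0.0114) and Igtp at -1.71 (adjusted p = 0.00893). The calls of Isg15 and Ifit1 ended without control 3 or treated replicate 3, and that of Igtp without control 3, with adjusted p up to 0.0879.
Oas1a chr5:120907526-120907585, minus strand: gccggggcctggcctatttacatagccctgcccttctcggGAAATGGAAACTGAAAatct
Isg15 chr4:156200850-156200909, minus strand: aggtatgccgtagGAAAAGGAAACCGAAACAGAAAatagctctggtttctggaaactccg
Ifit1 chr19:34640779-34640838, plus strand: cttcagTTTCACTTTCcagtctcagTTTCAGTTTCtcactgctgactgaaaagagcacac
Igtp chr11:58199496-58199555, plus strand: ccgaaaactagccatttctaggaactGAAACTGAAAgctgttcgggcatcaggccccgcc

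Called antimicrobial and epithelial defence genes were mostly lower with TMM. Of 19 tested 8 fell, 2 rose and 9 were not called (median -1.43), while 17.5% of all genes fell and 19.8% rose. With epithelial scaling 5 of the 19 were higher and 3 lower (median -0.35), beside 75.1% and 1.63% of all genes. No member was called higher when any library but control 3 was left out. The bactericidal lectin Reg3g stood at 5907, 3051 and 7417 CPM in control and 2203, 1980.2 and 1607 CPM after treatment (-1.50 ± 0.46, adjusted p = 0.0147), a call that ended without control 3 or treated replicate 3 (adjusted p up to 0.0622). Reg3b overlapped, with 10086, 5266 and 11429.7 CPM and 5539, 3961 and 2909 CPM (-1.11 ± 0.44, adjusted p = 0.0507). The small proline-rich proteins Sprr2a1 (-1.44 ± 0.31, adjusted p = 0.00147) and Sprr2a3 (-1.44 ± 0.32, adjusted p = 0.00185), close copies of each other, both fell.

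The receptor TLR5 (Tlr5) was itself below the filter, at 0.324, 0.0937 and 0 CPM in control and 0.331, 0.184 and 0.0990 CPM after treatment. Of 24 tested TLR5 and NF-kB genes 8 fell and 3 rose (median -0.26), while with epithelial scaling 17 were higher and 0 lower (median 0.76), beside 75.1% of all genes higher and a median of 1.09 with that scaling. The count of falls was 5 without treated replicate 1 or without control 2. The NF-kB inhibitor Nfkbia stood at 61.7, 79.8 and 65.4 CPM in control and 33.5, 26.6 and 30.1 CPM after treatment (-1.20 ± 0.24, adjusted p = 0.000745). The survival gene Birc3 (-1.07 ± 0.15, adjusted p = 3.35e-05) and the inhibitor Tnip1 (-1.08 ± 0.19, adjusted p = 0.000335) fell with it. Of 17 tested cytokines and chemokines 3 rose and 3 fell, shares near the 19.8% and 17.5% of all genes. The macrophage chemokine Ccl9 rose (1.73 ± 0.39, adjusted p = 0.00199), and Ccl25, which draws T cells to the small intestine, fell (-1.06 ± 0.24, adjusted p = 0.00213). Of 18 tested revival and fetal-like genes 2 rose and 6 fell. Clusterin (Clu), a marker of revival stem cells, was not called (0.25 ± 0.69, adjusted p = 0.804), and the fucosyltransferase Fut2, which decorates the epithelium for microbes, was not either (-0.65 ± 0.46, adjusted p = 0.278).

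Enterocyte genes were lower relative to the median gene. Of 25 tested brush border genes 19 fell and 0 rose (median -0.77), while with epithelial scaling 7 were higher and 4 lower (median 0.28). The peptidase Dpp4 (ENSMUSG00000035000) lies on chromosome 2 from 62330073 to 62412231. It stood at 2644, 2485 and 2023 CPM in control and 769, 869 and 763 CPM after treatment (-1.57 ± 0.24, adjusted p = 7.83e-05), and remained called lower with epithelial scaling. The membrane linker ezrin (Ezr) fell from 3816, 3773 and 2715 CPM to 1231, 1235 and 1198 CPM (-1.49 ± 0.22, adjusted p = 6.68e-05), and the glutathione-cleaving Ggt1 also fell (-1.09 ± 0.12, adjusted p = 6.83e-06).

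Of 24 tested nutrient transport genes 13 fell and 0 rose (median -0.91), and with epithelial scaling 9 were higher and 2 lower (median 0.11). Slc3a1, partner of the cystine carrier, stood at 949, 909 and 624 CPM in control and 216, 297 and 214 CPM after treatment (-1.77 ± 0.23, adjusted p = 2.08e-05). The neutral amino acid carrier Slc6a19 fell as well (-1.23 ± 0.20, adjusted p = 0.000119). Of 27 tested lipid absorption genes 21 fell and 0 rose (median -0.89), and with epithelial scaling 9 were higher and 3 lower (median 0.14). Gpat3, which starts triglyceride synthesis, fell (-1.11 ± 0.11, adjusted p = 2.36e-06), as did the lipid-regulating factor Creb3l3 (-1.11 ± 0.17, adjusted p = 0.000106). With the pancreas score as a covariate 7, 7 and 5 brush border, nutrient transport and lipid absorption genes were called lower and 0 higher. All genes were called lower at 3.17% and higher at 2.83% in that fit. With the fibroblast score 11 genes of each list were lower and 1 brush border gene was higher, beside 7.8% and 6.39% of all genes.

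Genes that mark the distal gut were mostly lower. Of 14 tested genes of distal small intestine and colon 8 fell and 3 rose (median -1.61, and -0.58 with epithelial scaling). The ileal bile acid exporter subunit Slc51b (ENSMUSG00000053862) lies on chromosome 9 from 65412714 to 65422955. It stood at 212, 184 and 202 CPM in control and 47.6, 54.5 and 46.2 CPM after treatment (-2.01 ± 0.22, adjusted p = 5.37e-06). Its partner Slc51a fell too (-1.71 ± 0.26, adjusted p = 7.49e-05). The water channel Aqp8, among the 3 distal genes that rose, is described below. Of 17 tested proximal genes 3 rose and 4 fell, beside 19.8% and 17.5% of all genes. The homeobox factor Onecut2 rose (1.74 ± 0.31, adjusted p = 0.000341), as did Pdx1 above and Cck, described below. Sult1b1, Slc5a1 and Apoa4 were among the 4 that fell. Whether the libraries were taken from the same stretch of gut was not tested.

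Called cytosolic ribosomal protein genes were all higher, with 61 of 76 tested higher and 0 lower (median 0.95, and 1.96 with epithelial scaling), beside 19.8% and 17.5% of all genes. Rpl36 stood at 12.2, 14.6 and 17.3 CPM in control and 66.1, 48.5 and 52.1 CPM after treatment (1.92 ± 0.29, adjusted p = 7.49e-05), and Rpl32 (1.46 ± 0.25, adjusted p = 0.000248) and Rps16 (1.33 ± 0.22, adjusted p = 0.000162) rose with it. With the pancreas score as a covariate 14 were called, and with the fibroblast score 1. Of 37 tested mitochondrially encoded genes 9 fell and 0 rose (median -0.80), while with epithelial scaling 2 were higher and 1 lower (median 0.13). That count was 2 without treated replicate 1 or 3 or control 3, 4 without control 1 and 5 without control 2.

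**Figure D4:**
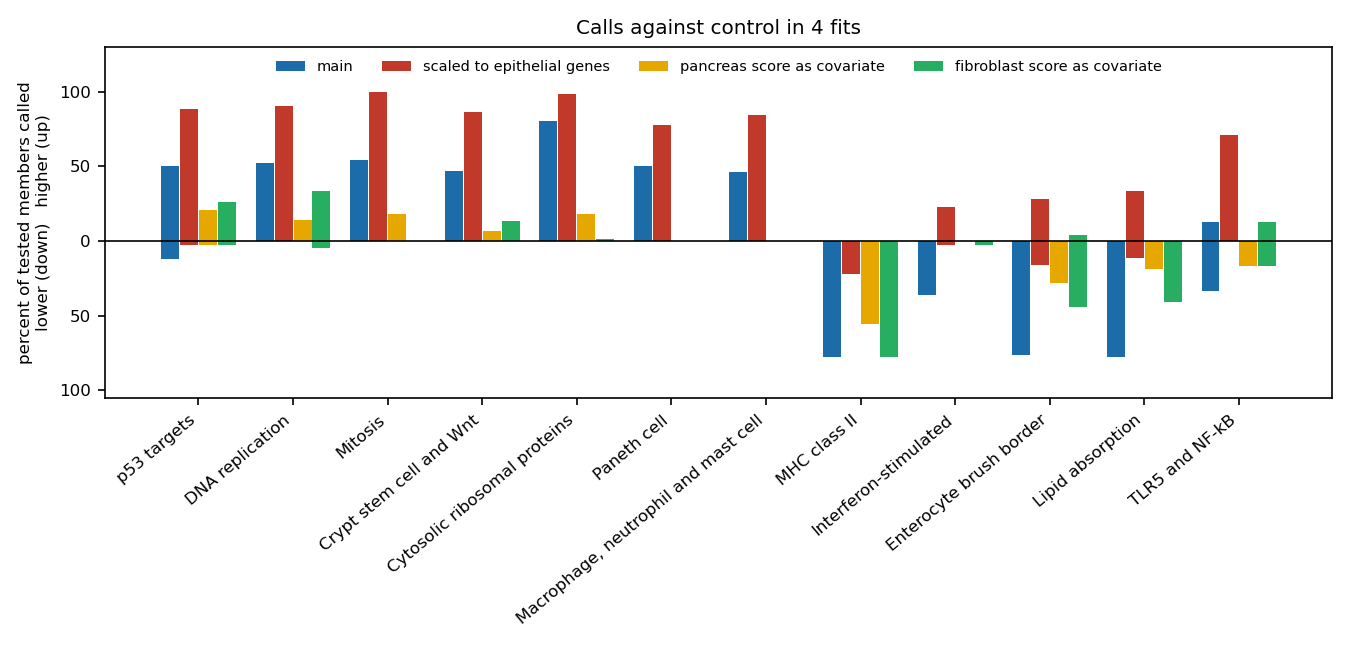
Percent of tested members of 12 lists called higher (up) or lower (down) against control in 4 fits, named by color. p53 targets have 7 called higher with the pancreas score and 9 with the fibroblast score, MHC class II has 5 and 7 called lower, and Paneth and macrophage genes have 0 called.

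In lipid and sugar metabolism, Angptl4, a lipoprotein lipase inhibitor under PPAR control, fell from 51.1, 49.3 and 65.2 CPM to 13, 6.97 and 9.63 CPM (-2.48 ± 0.47, adjusted p = 0.000557). Of 22 tested PPAR-alpha genes 5 rose and 1 fell (1 rose without treated replicate 1, control 1 or control 2). Over all genes 19.8% rose, a share near that of this list, and 17.5% fell, the background for each list in this paragraph with TMM. The mitochondrial thioesterase Acot2 rose (2.29 ± 0.64, adjusted p = 0.00892). Of 25 tested sterol and fatty acid synthesis genes 2 rose and 3 fell, while with epithelial scaling 13 were higher and 0 lower. Without control 1 or control 2 the counts were 1 and 1, without treated replicate 2 only 1 fell, and without treated replicate 3 only 1 rose. Fatty acid synthase (Fasn) rose (1.83 ± 0.40, adjusted p = 0.00166) and the sterol desaturase Sc5d fell (-0.98 ± 0.17, adjusted p = 0.000293, and above 0 with epithelial scaling). The gluconeogenic enzyme Pck1 stood at 795, 1124 and 1939.7 CPM in control and 258, 254 and 390.1 CPM after treatment (-2.10 ± 0.61, adjusted p = 0.0105). Of 11 tested gluconeogenesis genes 4 fell (2 without control 1 or treated replicate 3) and 1, Fbp1, rose (1.16 ± 0.29, adjusted p = 0.0043), while with epithelial scaling 4 were higher and 0 lower. Of 24 tested ER stress genes 8 fell and 3 rose (median -0.31), or 1 rose without treated replicate 1 or 3, while with epithelial scaling 15 were higher and 2 lower, and the kinase-like Trib3 (-1.65 ± 0.26, adjusted p = 0.000119) fell in both.

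The direct comparison with 6 Gy alone at 24 h asked what CBLB502 added to that dose, and its groups were both among the libraries with pancreatic RNA. No gene was called (0%), the smallest adjusted p was 0.465, and 303 genes (2.73%) had an unadjusted p under 0.05. DESeq2 called 6 and limma on log2(FPKM + 1) called 9, and edgeR called 2 without replicate 2 of 6 Gy alone. The median SE was 0.24 and 72.5% of genes had a 95% interval within 2-fold in either direction, and at the remaining genes the interval includes differences over 2-fold. Ccng1 stood at 88.5, 80.5 and 86.6 CPM after 6 Gy alone, with a difference of 0.09 ± 0.15 (adjusted p = 1). H2-Aa stood at 148, 854 and 113 CPM after 6 Gy alone, with replicate 2 far above the other two, and differed by -1.11 ± 0.62 (adjusted p = 1). Reg3g stood at 948, 1056 and 533 CPM, below each library with CBLB502, but the difference of 1.19 ± 0.46 was not called (adjusted p = 1). Saa1, an acute phase protein, was at 0.0539, 0.0485 and 0 CPM after 6 Gy alone and 0.963, 2.07 and 0.965 CPM with CBLB502, without overlap and not called (5.22 ± 2.03, adjusted p = 1).

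**Figure D5:**
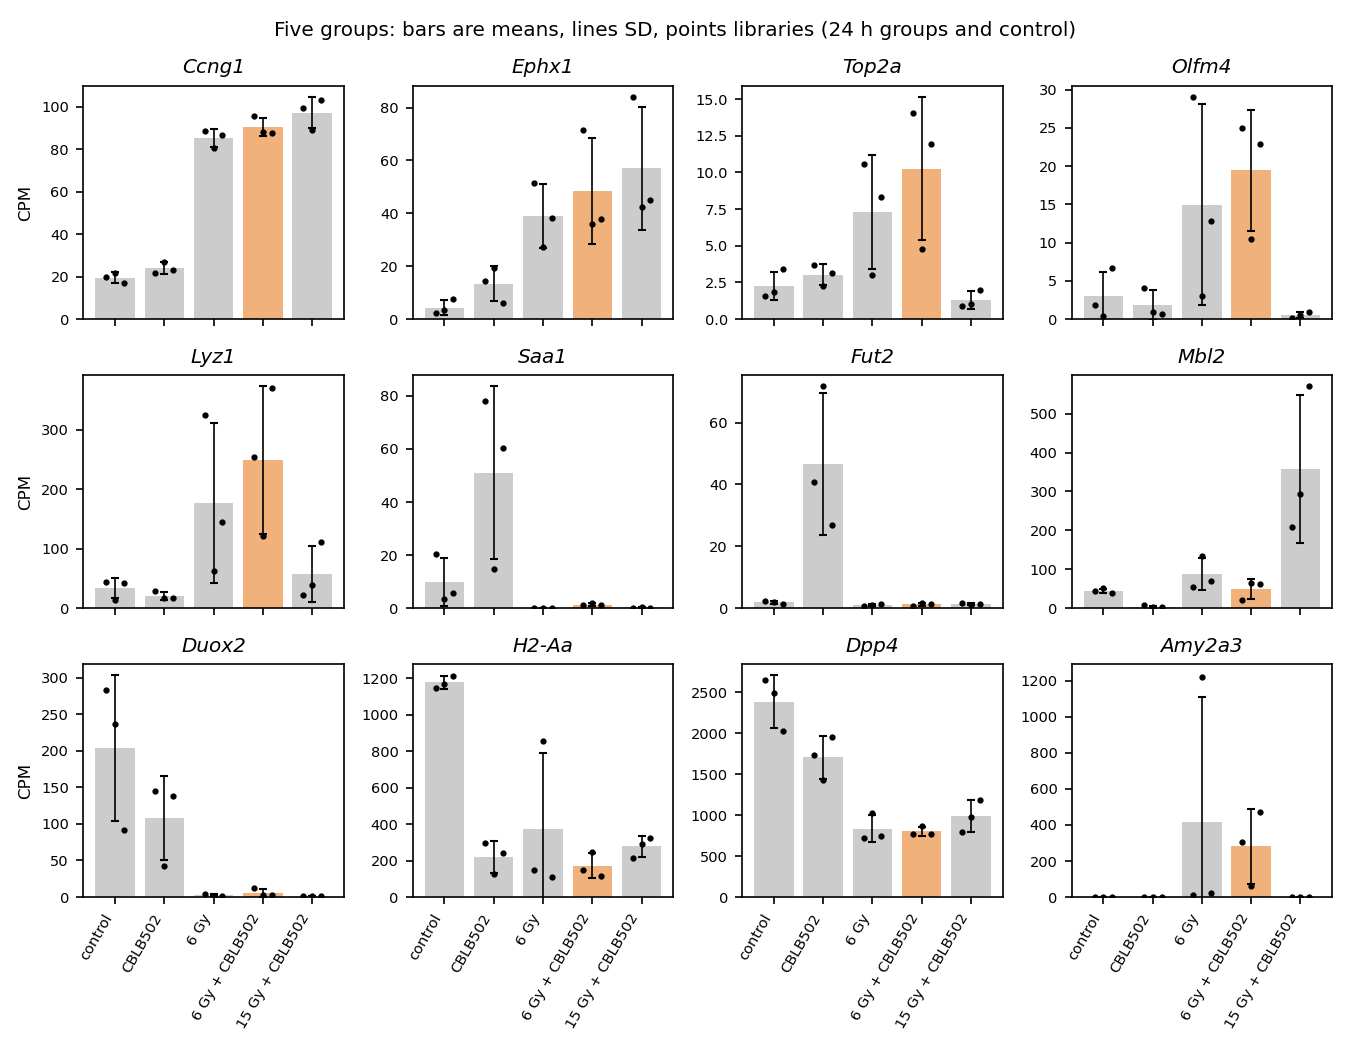
CPM of 12 genes in control and in 4 groups at 24 h, with bars for the mean, lines for the SD (cut at 0) and 1 point per library; each panel has its own axis from 0. Fut2 and Saa1 are high with CBLB502 alone, and Ccng1 is high in each irradiated group.

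Against CBLB502 alone, which tests what 6 Gy added to the agent, 3884 genes (34.9%) were called, 2122 higher (19.1%) and 1762 lower (15.8%). Several genes that were high with CBLB502 alone were lower after the combination. Fut2 was at 40.9, 71.8 and 26.8 CPM with CBLB502 alone and 0.590, 1.70 and 1.34 CPM with 6 Gy plus CBLB502 (-5.27 ± 0.52, adjusted p = 2.58e-06). Reg3b was at 35694, 43646 and 27615 CPM and 5539, 3961 and 2909 CPM (-3.11 ± 0.47, adjusted p = 8e-05). Saa1 was at 78.1, 14.8 and 60.4 CPM against 0.963, 2.07 and 0.965 CPM (-5.26 ± 1.50, adjusted p = 0.0104). None of the 3 genes overlapped, and no left-out library ended their calls. The iron reductase Cybrd1 was lower too (-5.68 ± 1.52, adjusted p = 0.0069), though not without replicate 2 of CBLB502 alone (adjusted p = 0.0534), as was Epop (-4.56 ± 0.72, adjusted p = 0.000118). Saa1, Cybrd1 and Epop were not called with either tissue score as a covariate, nor was Reg3b with the fibroblast score, which turned the sign of Cybrd1. Of 19 tested antimicrobial genes 12 were lower and 2 higher (median -1.56), and of 25 tested sterol and fatty acid synthesis genes 14 were lower and 1 higher (median -1.12).

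Other genes were higher after the combination than with CBLB502 alone. Ccng1 was at 21.8, 27 and 23.1 CPM with the agent alone (1.92 ± 0.15, adjusted p = 4.04e-07), and 18 of 34 p53 targets were higher and 2 lower. Mbl2, a complement-activating lectin, was at 6.58, 1.81 and 2.64 CPM with CBLB502 alone and 19.9, 63.9 and 63.1 CPM after the combination (3.74 ± 0.64, adjusted p = 0.000251). Of 18 tested Paneth genes 13 were higher (median 3.65), with Lyz1 at 28.3, 16.5 and 16.4 CPM under CBLB502 alone (3.61 ± 0.86, adjusted p = 0.00327). MHC class II genes had 0 of 9 called (median 0.02), and H2-Aa stood at 298, 124 and 242 CPM with CBLB502 alone (-0.36 ± 0.61, adjusted p = 0.677). Among 35 tested pancreatic genes 28 were higher, and the pancreas score with CBLB502 alone was -1.88, near that of control. With the pancreas and fibroblast scores as covariates 434 and 221 genes were called in all, and Fut2 and Ccng1 were among them in both fits. Mbl2 and Lyz1 were called in neither, and the sign of Lyz1 turned with the fibroblast score.

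Against 15 Gy plus CBLB502, which shares agent and time but not dose, 1986 genes (17.9%) were called, 1090 higher (9.8%) and 896 lower (8.06%) at 6 Gy. Without replicate 2 of 15 Gy plus CBLB502 the count was 965, without replicate 1 of 6 Gy plus CBLB502 1069, and without its replicate 3 1089. Of 11 tested mitosis genes 9 were higher at 6 Gy and 0 lower (median 2.19), a count that includes members let through the filter by the 6 Gy libraries alone and so describes those libraries. Top2a stood at 0.899, 1.00 and 1.99 CPM at 15 Gy plus CBLB502 (2.98 ± 0.56, adjusted p = 0.00151) and Plk1 at 2.25, 2.01 and 1.95 CPM (2.0 ± 0.34, adjusted p = 0.000799). Both lay below every 6 Gy plus CBLB502 library. Neither call ended with a library left out, but neither was made with the fibroblast score as a covariate. Olfm4 stood at 0.137, 0.555 and 0.892 CPM (5.20 ± 1.43, adjusted p = 0.0162), Mki67 at 1.91, 3.07 and 4.37 CPM (2.19 ± 0.61, adjusted p = 0.0174) and Ascl2 at 0.0999, 0 and 0 CPM (5.02 ± 1.56, adjusted p = 0.0344), each lost with at least 1 library left out.

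Of 34 tested p53 targets 4 were higher at 6 Gy and 3 lower (median -0.09), shares near the 9.8% and 8.06% of all genes. Ccng1 was at 99.4, 89 and 103 CPM at 15 Gy plus CBLB502 (-0.10 ± 0.15, adjusted p = 0.674). Mbl2 was lower at 6 Gy, with 208, 293 and 571 CPM at 15 Gy plus CBLB502 (-2.87 ± 0.61, adjusted p = 0.00371). The clock-linked repressor Nfil3 was also lower at 6 Gy (-2.75 ± 0.67, adjusted p = 0.00793). Igha stood at 5.65, 15.6 and 58.5 CPM at the higher dose (5.17 ± 1.19, adjusted p = 0.00597), and 65 of 76 ribosomal protein genes were higher at 6 Gy (median 1.09). Among pancreatic genes 26 were higher at 6 Gy and 0 lower, and the mean pancreas score was -1.45 at 15 Gy plus CBLB502 against 5.30 at 6 Gy plus CBLB502. The count of 26 includes members let through the filter only by the 6 Gy libraries, and so describes those libraries. With the 2 tissue scores as covariates 106 and 189 genes were called. Igha and Nfil3 were not called with either score, and Mbl2 was not with the pancreas score. What dose and what tissue content contribute cannot be told apart.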

How the data were processed

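RNA from mouse intestine was extracted with Trizol and sequenced on an Illumina instrument, per the labels' protocols. The authors deposited whole-number counts and FPKM per gene and library in 1 table. The FPKM values of the authors hold 0.0001 in place of 0. Per the submitters' processing notes Bowtie 0.12.2, HISAT2 2.0 and StringTie 1.3.0 were used with the build mm8, while the sources used here do not give the program behind each value, the strand setting or the annotation release. The positions printed are on GRCm38, since 94.2% of the 55141 identifiers that GENCODE vM21 also holds lie at the same place there.

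The test took 11118 of 55401 genes, those reaching an FPKM of 1 in 3 or more of the 27 libraries. Counts of all 27 libraries in 9 groups were scaled by TMM and fitted by the quasi-likelihood method of edgeR 4.0.16 in R 4.3.3 (F test, Benjamini-Hochberg adjustment over all genes tested in a comparison), and every adjusted p is from edgeR unless another tool is named. Libraries of a group differed by more than counting error (chi-square per degree of freedom 143 to 455 in control and 148 to 318 after 6 Gy plus CBLB502). A fold against a group with 0 counts uses a floor of 3 counts over that group, which covers counting error only. On simulated data with 11118 genes, 67, 67 and 66 were changed by 1.5, 2 and 4-fold. Of these 7.46, 43.3 and 83.3% were recovered, and 6 of the 95 calls made were of genes simulated without a change. Recovery depends on the share of genes changed. That share was far below the 37.3% called against control, so these values do not estimate recovery in the data.

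Alternatives were DESeq2 1.42.0, limma 3.58.1 on log2(FPKM + 1) and log2(FPKM + 0.1), no filter, median-ratio scaling, scaling to epithelial genes, the replicate number as a block, the compared groups alone, the 6 Gy 24 h libraries, mitochondrial genes or markers of other tissues left out, a pancreas or fibroblast score as a covariate, and each library left out. A filter on the other 21 libraries was added after seeing the data. Genes are named where they had the 12 largest changes in each direction (called, no overlap of the groups, a mean FPKM of at least 5 in the higher group), or were among the 12 largest rises outside markers of other tissues, the 4 largest each way in the other comparisons, up to 4 members of each list with the smallest adjusted p, and a fixed list of 22, from which the text describes a selection, and a few are not reported here. The genes and lists were chosen with earlier results of these data known. All 27 libraries entered the fit reported.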

Additional observations from a re-analysis of the deposited data

Results flagged for a closer look

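The direct comparison of 6 Gy plus CBLB502 with 15 Gy plus CBLB502, which share the agent, the time and the control group, was called for 6 genes of the fixed list. The difference in log2 between the groups was 5.20 for Olfm4, 5.02 for Ascl2 and 2.19 for Mki67, which belong to stem and dividing cells. For Olfm4 the levels were 19.5 ± 7.91 CPM at 6 Gy and 0.528 ± 0.378 CPM at 15 Gy. For Mki67 they were 14.2 ± 6.37 CPM and 3.12 ± 1.23 CPM. It was 10.15 for Amy2a3, 15.91 for Amy2b and 6.34 for Col1a1, which belong to pancreas and stroma. Amy2b had 0 counts at 15 Gy plus CBLB502, so its fitted difference depends on the prior count and is no bound. Of these 6, the calls of Olfm4, Ascl2 and Mki67 ended with at least 1 library left out, and with the pancreas score as a covariate none of the 6 was called.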

How the results depend on the processing

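Of 4143 genes called against control, 3979 were called in the same direction with median-ratio scaling, 4079 by DESeq2, 3795 without the 6 Gy 24 h libraries and 3216 with the compared groups fitted alone. Counts of calls moved most with the scale and with the tissue scores. By limma on log2(FPKM + 1) they were 6565 against control, 9 against 6 Gy alone, 6217 against CBLB502 alone and 3827 against 15 Gy plus CBLB502, and on log2(FPKM + 0.1) 6412, 0, 6047 and 3396. Scaling to epithelial genes gave 8534 against control and 6633 against CBLB502 alone. The pancreas score as a covariate gave 667 calls against control, 434 against CBLB502 alone and 106 against 15 Gy plus CBLB502, and the fibroblast score 1577, 221 and 189. Against 6 Gy alone DESeq2 called 6 genes and the compared groups fitted alone 1. Leaving out 1 library gave 2998 to 4124 calls against control, 0 to 2 against 6 Gy alone, 2862 to 3572 against CBLB502 alone and 965 to 1805 against 15 Gy plus CBLB502. The causes were not tested.

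Directions reversed for some named genes. Epithelial scaling moved the median of all genes from 0.07 to 1.09, so genes with a smaller fall than that turned. With it the change against control was 0.13 for Cdkn1a, 0.20 for Cry2, 0.19 for Ctss, 0.89 for Lct, 0.75 for Mdm2 and 0.0657 for Sc5d. By limma Mdm2 stood at 0.34 and 0.38 with 1 and 0.1 added. With the fibroblast score as a covariate Acta2 stood at -0.31 and Igha at -0.78. Genes called in neither fit also turned, with epithelial scaling Cd3d (0.09) and Fut2 (0.38), with the fibroblast score Olfm4 (-0.64), Mki67 (-0.49), Clu (-0.61) and Mbl2 (-1.57), and with the pancreas score Clu (-0.99), Fut2 (0.13), Mbl2 (-0.53) and Saa1 (2.18).

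Replicate numbers did not pair the libraries, since same-numbered libraries of the 2 groups correlated at -0.02, 0.09 and 0.07. With the replicate block 4067 genes were called against control, 1 against 6 Gy alone, 3838 against CBLB502 alone and 1921 against 15 Gy plus CBLB502. With 3 libraries a group the median SE against control was 0.24. In simulated data with few changed genes, 1.5-fold changes were recovered for 7.46% of 67 genes.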

Other observations

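Of 16 tested genes of hormone-producing enteroendocrine cells 8 rose and 2 fell (median 0.51), beside 19.8% and 17.5% of all genes. Without control 3 only 4 rose, without treated replicate 1 only 1 fell, and with the pancreas score as a covariate 0 were called. The gut hormone cholecystokinin (Cck), made mostly in the proximal intestine, stood at 10.4, 13.9 and 9.53 CPM in control and 25.7, 42.7 and 41.9 CPM after treatment (1.71 ± 0.46, adjusted p = 0.00674). Secretogranin II (Scg2), a protein of hormone granules, rose from 3.70, 5.18 and 2.12 CPM to 6.37, 7.85 and 7.77 CPM (1.0 ± 0.28, adjusted p = 0.00792). Neither gene overlapped between the groups. Pancreatic islet cells share many such genes, and 7 of 10 listed islet markers were below the filter. Of 22 tested goblet cell genes 2 rose and 4 fell, a share of falls near the 17.5% of all genes and of rises below their 19.8%. With epithelial scaling 15 goblet genes were higher and 1 lower, beside 75.1% and 1.63% of all genes. No goblet gene was called higher without control 3 or treated replicate 1 or 3, and 1 was without any other library. The membrane mucin Muc13 fell (-1.19 ± 0.18, adjusted p = 7.58e-05, and -0.18 with epithelial scaling, not called), and the guanylate cyclase ligand Guca2b fell with both scalings (-1.74 ± 0.29, adjusted p = 0.000161). Of 13 tested tuft cell genes 1 rose and 0 fell, or 0 rose without control 2 or treated replicate 3. Both shares were below the 19.8% and 17.5% of all genes.

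Of 17 tested circadian clock genes 5 fell and 0 rose (median -0.67), while with epithelial scaling 3 were higher and 0 lower (median 0.29). Of all genes 17.5% fell and 19.8% rose with TMM, and with epithelial scaling 75.1% were higher, with a median of 1.09. The repressor Cry2 stood at 20.9, 28 and 25.6 CPM in control and 14, 15.8 and 12.8 CPM after treatment (-0.81 ± 0.21, adjusted p = 0.00532, and above 0 with epithelial scaling). Without treated replicate 1 or 3 or control 3 only 2 clock genes were called, and 3 without control 2. The E-box CACGTG was in the promoters of 5 of 17 matched clock genes (29.4%) beside 8.09% of all genes.

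In the comparison with control 189 genes were called the same way in each of the 20 alternatives, 127 higher and 62 lower. Those named next were chosen after their values were seen. Among the higher genes were nucleolin (Ncl, 1.60 ± 0.24), nucleophosmin (Npm1, 1.91 ± 0.26), the helicase Ddx21 (1.65 ± 0.21) and the large-subunit factors Pes1 (0.99 ± 0.16) and Bop1 (0.98 ± 0.16). The p53 death effector Bbc3 was higher (2.16 ± 0.41), though more genes of the apoptosis list fell than rose. The immediate-early factor Fos (-2.28 ± 0.36) and the cytokine signalling inhibitor Socs3 (-2.0 ± 0.34) were lower, as was the lipoprotein Apoa1 (-1.52 ± 0.24). The water channel Aqp8 had 0 counts in control and 4.39, 5.02 and 4.15 CPM after treatment, at least 311-fold higher.

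Single libraries carried some values. The signal recognition particle RNA entry Rn7s2 stood at 0.435, 77.7 and 0.446 CPM after treatment, high in replicate 2 alone. Commd1b stood at 31.3, 28.3 and 1.27 CPM, low in replicate 3. Albumin (Alb), a liver protein with 0 counts in control, stood at 0.0414, 19.5 and 8.69 CPM, at least 648-fold higher. The element described for p53 binding was in the promoter of 1 of 28 matched p53 targets, Cdkn1a, beside 0.0740% of all genes, a search added after the values were seen. The search planned before, for the CATG core of the p53 half-site, found it in 14 of 28 (50%), beside 64.8% of all genes.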
